A study of Rattus norvegicus with 4 samples.

Results

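The 37 genes described here are the transcription factor NRF2 (Nfe2l2), its repressor Keap1 and the enzymes and carriers that handle hydrogen peroxide, superoxide, haem, quinones and glutathione. They were chosen by name: a gene's probes were those spots, other than controls, whose deposited gene name was one of the 37 symbols. All 37 had at least 1 probe, 46 probes in all, out of 21077 genes with a RefSeq symbol on the array. They were measured in NR8383, a macrophage line established from the lung lavage of a normal rat, on 4 one-colour Agilent arrays of a single group, the submerged control. The cells had gone through 20 passages in DMEM with 15% heat-inactivated serum, antibiotics, an antifungal and 2 mM glutamine, and 50% of them adhered while the rest floated. The labels call the 4 samples biological replicates and give 2 durations, 4 h in the design text and 48 h in the treatment protocol, so no duration is attached to the values. No other condition was analysed here, and the question the design allows is which of these genes the cells express and how far the replicates differ.

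In resting cells KEAP1 holds NRF2 for ubiquitination and degradation. Oxidants and electrophiles modify cysteines of KEAP1, NRF2 then accumulates with little need for new mRNA, and with a small MAF partner it binds antioxidant response elements near genes such as Hmox1, Nqo1, Gclc, Gclm, Srxn1, Txnrd1, Slc7a11 and Me1. Alveolar macrophages take up inhaled particles and red cell debris and make oxidants themselves, and the glutathione and thioredoxin systems, both fed by NADPH, remove these oxidants.

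The 60-base probes decide what the arrays can read, and 3 of them bear most on the results below. The first 30 bases of each are shown as deposited, 5′ to 3′. The Hmox1 probe lies at chr19:13969336-13969395, the Gclc probe at chr8:82762574-82762633 and the Gclm probe at chr2:218915215-218915274, all on the plus strand of rn4; exon and UTR annotation of that build was not used here.
Hmox1: gcgatgggtcctcacactcagtttcctgtt
Gclc: gaatagtctgcatcctgcttgctttctgta
Gclm: atatatttcctttatttttatgagtaatag
The Gclm probe is nearly all A and T. G and C made up 15.0% of its bases, against 55.0% for Hmox1 and 35.0% for Gclc, and the median over the 29213 probes with a gene symbol was 43.3%.

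Each level is the log2 signal minus that of the 75th percentile of its array, given for replicates 1 to 4 in that order, and a probe was called detected where its spots were well above background. The 75th percentile was 1317.3, 1489.4, 1179.4 and 958.2 fluorescence units, and 51.7% to 56.0% of spots were well above background, with no saturated spot. The macrophage identity of the cells was checked on marker genes. All 8 macrophage markers, among them Cd68 at 4.74 ± 0.05 and Lyz2 at 6.67 ± 0.06 (SD, n = 4), were detected on all arrays, with a summed signal of 131000 to 201000 units. Of 6 alveolar epithelial markers none was detected on all 4 arrays, and their summed signal was 52.2 to 84.7 units; Sftpb, Epcam and Cdh1 were detected on no array. Neither of 2 erythroid markers was detected. Of the markers of other types, 1 of 4 for fibroblasts (Col1a2), 2 of 4 for endothelium (Pecam1 and Cdh5), 1 of 4 for lymphocytes (Cd3d) and 1 of 3 for neutrophils (Mpo) were detected. In such bulk RNA fewer cells of a kind and less RNA per cell cannot be told apart.

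Of the 37 genes 32 were detected on all 4 arrays (86.5%), against 50.9% of all named genes. The 5 others were Gclm, Sod3, Gpx2, Gpx3 and Gstm1. All 6 peroxiredoxins and all 7 genes grouped here as the thioredoxin system, with the glutaredoxins Glrx and Glrx2 among them, were detected. In contrast, 2 of 4 glutathione peroxidases and 1 of 5 glutathione transferases were not. Levels of different probes depend on the probe and are not ranked.

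**Figure D1:**
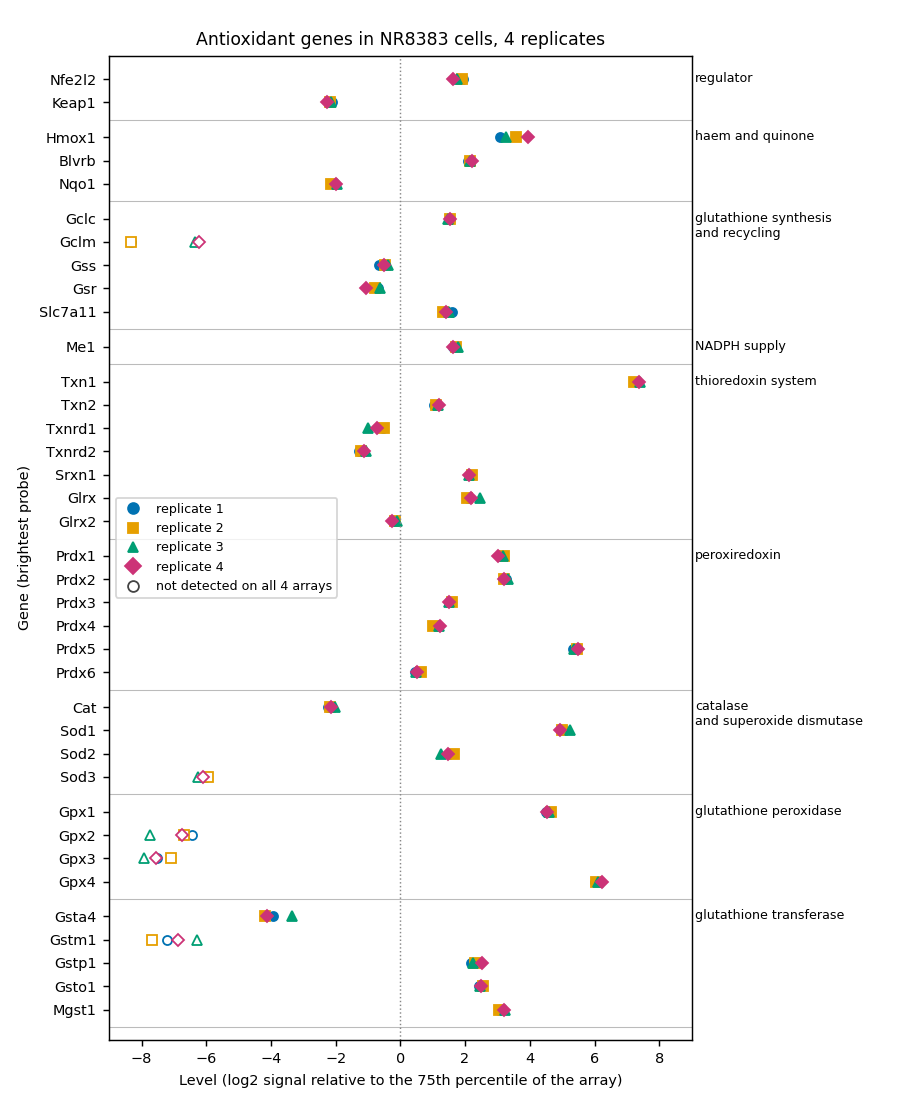
Level of each of the 37 genes on replicates 1 to 4, as log2 signal over the 75th percentile of the array (horizontal axis), grouped by role; each point is 1 array, and open symbols mark genes not detected on all 4 arrays. The 5 genes with open symbols are Gclm, Sod3, Gpx2, Gpx3 and Gstm1, and among the filled symbols the points of Hmox1 and Gsta4 spread widest.

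The regulators were both detected. Nfe2l2, the gene of NRF2, had levels of 1.93, 1.89, 1.74 and 1.64. Keap1, the adaptor that presents NRF2 to a ubiquitin ligase, had levels of -2.11, -2.18, -2.16 and -2.28. Both were highest on replicate 1 and lowest on replicate 4, and the SD was 0.14 for Nfe2l2 and 0.07 for Keap1. These SDs were 1.43 and 0.515 times the trend over all genes at the same signal, and limma's variance test, described below, called neither (adjusted p = 1.0 for each).

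Hmox1, which splits haem into biliverdin, carbon monoxide and iron, differed most between replicates relative to its signal. Its levels were 3.08, 3.57, 3.27 and 3.93, which correspond to processed signals of 11100, 17700, 11300 and 14600 units. Replicate 4 was highest and replicate 1 lowest, 1.81-fold apart. The SD of 0.37 was 3.93 times the SD of 0.09 that the trend over all genes gave at this signal. limma's test of that variance gave an adjusted p of 0.19 (Benjamini-Hochberg over 19400 detected probes), so the call was not made. With a normexp background correction the adjusted p was 0.033, and without a filter on dim probes it was 1.4e-07. These 2 settings passed 136 and 571 genes of the whole array, against 16 in the main setting. Under the other alternatives the adjusted p of Hmox1 in limma was 0.16 to 0.93. The Hmox1 value rests on 1 probe and 1 spot per array. Relative to bright spike-in probes the order changed, with replicate 2 highest and replicate 3 lowest. Blvrb, a biliverdin and flavin reductase, had levels of 2.10, 2.15, 2.16 and 2.22 and had the third lowest SD of the detected genes (0.05). Nqo1, which reduces quinones by 2 electrons at once and is a standard NRF2 target, had levels of -2.03, -2.16, -1.95 and -2.0. Nqo1 spanned 1.16-fold and did not follow the order of Hmox1.

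At the 75th percentile scale the ferritin chains, which store the iron that haem breakdown releases, were both highest on replicate 4 and lowest on replicate 2. The heavy chain Fth1 had levels of 7.43, 7.19, 7.51 and 7.80, with an adjusted p of 0.66 in limma. Its processed signals, before scaling, were 227000, 218000, 214000 and 214000 units, highest on replicate 1. The light chain Ftl1 had levels of 7.90, 7.70, 7.96 and 8.19, with an adjusted p of 0.87 in limma. Its processed signals were 316000, 310000, 294000 and 281000 units, highest on replicate 1 and lowest on replicate 4. On replicate 2 the scaled ferritin levels were lowest while Hmox1 was above its own mean. The processed ferritin signals were not lowest there. The ferritin order was not kept under every scaling. Under quantile normalization both stayed lowest on replicate 2, with SDs of 0.11 and 0.02, and no single replicate was clearly highest. Fth1 then lay 0.07 above its mean on replicates 3 and 4, and Ftl1 0.01 above its mean on replicates 1, 3 and 4. Relative to spike-in probes both were highest on replicate 1 and lowest on replicate 4. Biliverdin reductase Blvra, the constitutive haem oxygenase Hmox2 and the haem-making enzyme Fech had SDs of 0.04 to 0.07. Among the macrophage markers Itgam, an integrin chain, was also highest on replicate 4, with levels of -1.42, -0.56, -1.59 and -0.03 and an adjusted p of 0.065 in limma. Its part in the Hmox1 result was not tested.

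**Figure D2:**
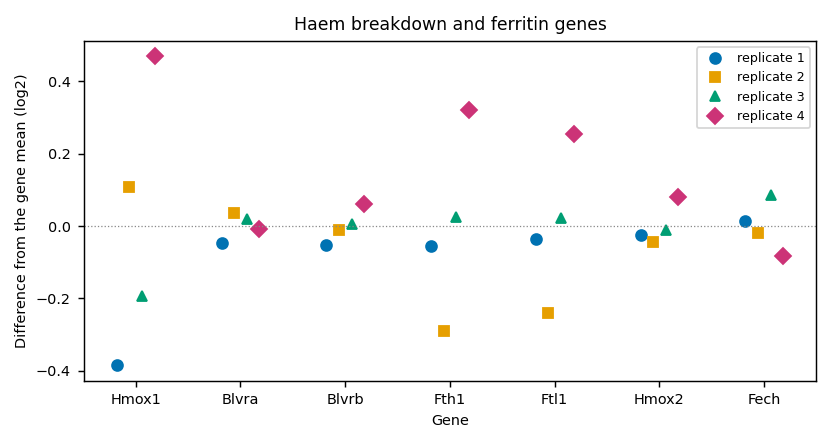
Difference of each replicate from the mean of its gene (log2, vertical axis) for 7 haem breakdown and ferritin genes; each point is 1 array. Replicate 4 lies 0.47 above the mean for Hmox1 and 0.32 above it for Fth1, and replicate 2 lies above the mean for Hmox1 and below it for Fth1 and Ftl1.

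The 2 chains of glutamate-cysteine ligase, the first enzyme of glutathione synthesis, gave opposite pictures. The catalytic chain Gclc had levels of 1.53, 1.54, 1.47 and 1.52, a spread of 1.05-fold, and its SD of 0.03 was the lowest of the 32 detected genes (0.07 with normexp). The modifier chain Gclm was detected on no array, with levels of -8.32, -8.32, -6.35 and -6.23 that lie at background. Its processed signals were 4.13, 4.65, 14.5 and 12.7 units, and the weaker flag for a positive and significant signal was set on 2 of 4 arrays. Gclm was read by a single spot of the A- and T-rich probe shown above. Probes of this composition were seldom detected. Of 7 named probes with at most 15% G and C, the Gclm probe among them, 0 were detected on all 4 arrays. Of 62 with at most 20%, which include those 7, 16 were (25.8%). The share was 56.7% for probes over 20% and up to 30%, and 46.9% for those over 40% and up to 50%. For 20 probes with at most 20% G and C, the same gene had another probe, with over 30%, that was detected on all arrays. Of these 20 probes 14 were themselves not detected. The same share was not counted for pairs of probes both over 30%, so the 14 have no baseline. Gclm thus has only a bound on these arrays, and the part of base composition in its missing signal was not tested.

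The other genes grouped here under glutathione synthesis and recycling, Slc7a11, Gss and Gsr, were detected. Slc7a11, the cystine importer that supplies cysteine for glutathione, had levels of 1.58, 1.31, 1.5 and 1.42. Glutathione synthetase Gss had a mean of -0.50 ± 0.12 (SD, n = 4). Glutathione reductase Gsr, which restores glutathione with NADPH, had levels of -0.68, -0.78, -0.63 and -1.07. Gsr was lowest on replicate 4, the replicate highest for Hmox1, and its range of 1.36-fold gave an adjusted p of 0.94 in limma. Its SD was 0.20, and 0.08 without replicate 4. Me1, which makes NADPH from malate and is an NRF2 target, had levels of 1.64, 1.71, 1.77 and 1.62 and spanned 1.11-fold.

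The thioredoxin system reduces protein disulfides and peroxiredoxins. Cytosolic thioredoxin Txn1 had levels of 7.32, 7.22, 7.39 and 7.38 from a probe on 10 spots. The standard error over those spots was 0.015 on an array, smaller than the SD of 0.08 between arrays. Srxn1, sulfiredoxin, which rescues over-oxidised peroxiredoxins, had levels of 2.16, 2.21, 2.13 and 2.12, and its SD was 0.04 (0.08 with normexp). Txnrd1, the selenoprotein that reduces thioredoxin, had levels of -0.53, -0.51, -1.0 and -0.73, lowest on replicate 3. Its SD of 0.23 was 2.07 times the trend, with an adjusted p of 0.80 in limma, and it fell to 0.12 without replicate 3 and to 0.08 in the mean of its 2 probes. Glrx, which removes glutathione from proteins, was highest on that replicate, with levels of 2.09, 2.07, 2.45 and 2.18 (SD 0.18, or 0.06 without replicate 3; adjusted p = 0.88 in limma). The mitochondrial members Txn2, Txnrd2 and Glrx2 had SDs of 0.07 to 0.10.

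The 6 peroxiredoxins, which reduce peroxides through a reactive cysteine, had SDs close to each other. These ran between 0.06 and 0.09, and the widest of them, Prdx6, spanned 1.15-fold. Prdx1 was read on 10 spots and had levels of 3.07, 3.19, 3.17 and 3.02, and Prdx5 on 9 spots with 5.33, 5.45, 5.36 and 5.49. The 2 were not ordered alike: replicate 4 was lowest for Prdx1 and highest for Prdx5.

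Catalase and 2 of 3 superoxide dismutases were detected. Catalase (Cat), the peroxisomal enzyme that splits hydrogen peroxide, had a mean of -2.15 ± 0.09. Sod1, the cytosolic copper and zinc enzyme, had a mean of 5.06 ± 0.13 (SD, n = 4 for each). Mitochondrial Sod2 had levels of 1.5, 1.66, 1.27 and 1.46, highest on replicate 2 and lowest on replicate 3 as Txnrd1 was, with an adjusted p of 0.96 in limma. The secreted enzyme Sod3 was at the edge of detection. Its levels were -6.02, -5.94, -6.27 and -6.10 over 10 spots, and it passed on 2 arrays.

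Glutathione peroxidases divided by member. Gpx1, the cytosolic peroxidase, and Gpx4, which reduces lipid peroxides in membranes, were detected at means of 4.56 ± 0.07 and 6.09 ± 0.10 (SD, n = 4). Gpx2, best known from the gut epithelium, had 10 spots and levels of -6.43, -6.69, -7.73 and -6.76. Gpx3, the plasma enzyme, had levels of -7.51, -7.10, -7.93 and -7.56. Gpx2 and Gpx3 were well above background on no array.

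Among the glutathione transferases, which join glutathione to electrophiles, Gstp1, Gsto1, Mgst1 and Gsta4 were detected. Gstp1 had levels of 2.18, 2.32, 2.24 and 2.52 and was highest on replicate 4. Gsta4, which acts on lipid aldehydes such as hydroxynonenal, had levels of -3.93, -4.17, -3.35 and -4.13. Its SD of 0.38 was the largest among the 32 detected genes, where the trend gave 0.21 at so dim a signal (adjusted p = 0.91 in limma). It rested on replicate 3: the SD was 0.13 without it, and 0.24 with the normexp correction. Gstm1 was detected on no array, with levels of -7.21, -7.69, -6.28 and -6.87. Its 2 probes are not independent, since they share 29 bases at chr2:203575827-203575855 (rn4, minus strand). Neither was well above background on any array, although the weaker flag was set on all 4 for the brighter one. The shared run is:
Gstm1: acctctcaacacctatattttcgaagttg
Gstm1 belongs to a family of near-identical mu-class genes, and which of them each probe binds was not examined.

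The variance test set each probe's variance over the 4 arrays against the variance usual at its signal. Of the 32 detected genes 0 passed at an adjusted p under 0.05, and 1, Hmox1, had an unadjusted p below 0.05 (3.12%). With 4 arrays the test has little power for a single gene, and a gene that did not pass is not thereby shown to be steady. Among all 10720 detected genes 0.149% passed and 5.97% had an unadjusted p below 0.05. The median SD was 0.092 for the antioxidant genes and 0.114 for all detected genes, and as a ratio to the trend at each gene's signal the medians were 0.86 and 0.90. In 30 of 32 genes (93.8%) the highest and lowest replicate lay within 0.5 on the log2 scale, against 84.4% of all detected genes; the exceptions were Hmox1 and Gsta4. No gene of the 32 had 1 array set apart from the other arrays by Dixon's criterion for 4 values (a gap to the nearest array that is too large a part of the range), against 5.15% of all detected genes.

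**Figure D3:**
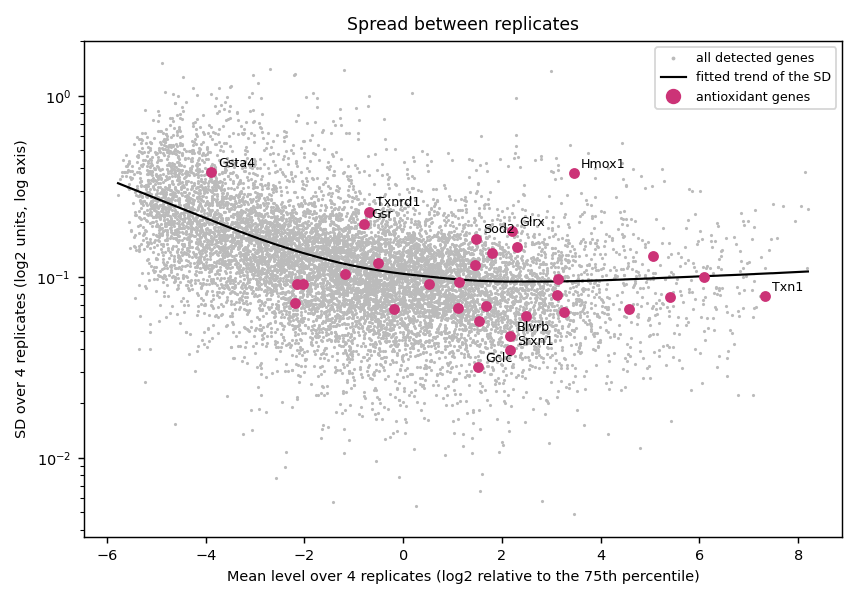
SD over 4 replicates (log axis, log2 units) against mean level for the 10720 detected genes (grey), the fitted trend (line) and the 32 detected antioxidant genes (large points, the most and least variable named). Hmox1, with an SD of 0.37, lies above the trend, and Gclc, Srxn1 and Blvrb, with SDs of 0.03 to 0.05, lie below it.

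Replicates 2, 3 and 4 were each highest for at least 7 of the antioxidant genes. Replicate 3 was highest for 13 of 32 (40.6%), against 22.6% of all detected genes, and replicate 1 was lowest for 13 (40.6%), against 23.8%. The median deviations of the 32 genes from their own means were -0.04, 0.01, 0.05 and -0.01 on replicates 1 to 4, against -0.005, 0.009, -0.008 and 0.009 over all detected genes. This order holds for scaling to the 75th percentile, and relative to the bright spike-in probes replicate 3 was highest for 0 of the genes and replicate 4 lowest for 31, as it was for 9773 of all 10720 genes.

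**Figure D4:**
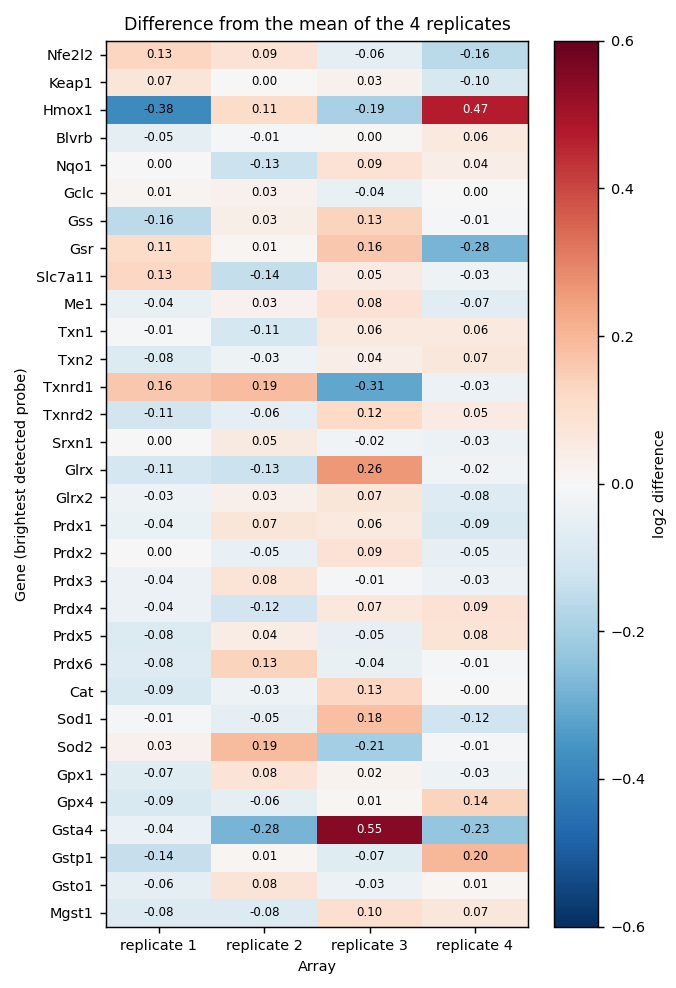
Difference of each replicate (columns) from the mean over replicates of each of the 32 detected genes (rows), in log2 units; red is higher and blue lower. The largest entries are those of Gsta4 on replicate 3 (0.55) and Hmox1 on replicate 4 (0.47), and most other entries are within 0.2.

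Several genes had more than 1 detected probe, and these repeat the measurement within the same RNA. The 2 Gpx4 probes deviated alike to within 0.02 on every array, and the 2 Gstp1 probes, which share 17 bases and have 10 spots each, to within 0.01. For Gstp1 the excess on replicate 4 was 0.20 on both probes. The Gpx1 probes differed by at most 0.10. The 2 Txnrd1 probes did not move together: the dimmer one had levels of -2.21, -2.42, -2.12 and -2.26 and was highest on replicate 3, where the brighter one was lowest, a gap in deviation of 0.44. The low Txnrd1 value on replicate 3 was seen with 1 probe of the 2. That brighter probe has 60 bases, but its deposited coordinates, chr7:23055528-23055561 (rn4), span 34. The coordinates of the dimmer one span 60. Where the other bases of the brighter probe lie was not examined. The 2 Slc7a11 probes differed by at most 0.19. The third Glrx2 probe had an SD of 0.27, against 0.07 for each of the others. The second Txn1 probe had levels of -2.48, -2.50, -2.32 and -2.06, with an SD of 0.20 against 0.08. It lies at chr5:75921351-75921410 on the plus strand of rn4, while the brighter one is given on the minus strand at chr5:75921410-75922750, so the files place the 2 on opposite strands.

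**Figure D5:**
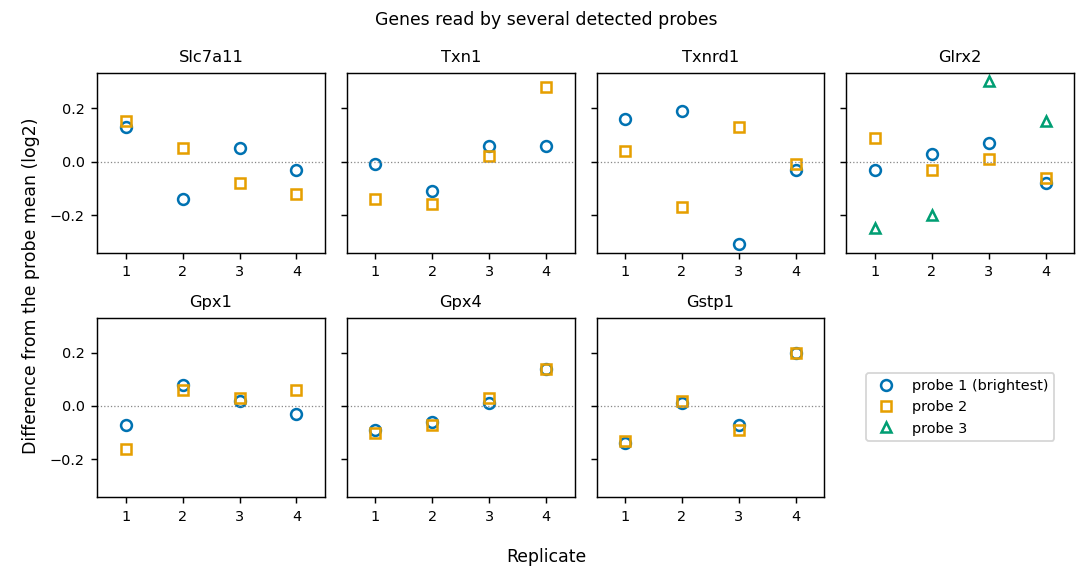
Difference of each replicate from the probe's own mean (log2, vertical axis) for the 7 genes with more than 1 detected probe; each symbol is a probe. The probes of Gpx4 and Gstp1 overlie each other, and those of Txnrd1 lie apart on replicates 2 and 3.

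Promoters were searched for the core of the antioxidant response element, TGACNNNGC, on both strands. RefSeq windows (GRCr8, 250 bases before to 50 after each start) were matched for 33 of the 37 genes by symbol, and not for Hmox1, Gsr, Prdx6 and Sod3. Of the 39 windows of these genes 10 held the core (25.6%), against 12.1% of 33469 promoters. Among detected genes it was 8 of 35 windows (22.9%), against 14.4% of the promoters of all detected genes. The AP-1 core TGANTCA overlaps the element in 3 of the 10 windows. It was present in 17.9% of the 39 windows, against 7.33% of all promoters. Among detected genes these shares were 20.0% and 5.4%. Of the standard targets 3 are shown for their elements (Me1, Txnrd1 and Gclm), with Prdx1 and Gstp1, whose cores also hold the AP-1 letters as Me1's does, and Gpx2, which like Gclm was not detected. Each line is read 5′ to 3′ along the strand that carries the match, with the core in capitals.
Prdx1: cggcggggtaTGACTCAGCgctttccctg
Me1: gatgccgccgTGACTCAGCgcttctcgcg
Gstp1: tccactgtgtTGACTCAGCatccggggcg
Txnrd1: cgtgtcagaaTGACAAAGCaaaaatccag
Gclm: tggaagacaaTGACTAAGCagaaaccgca
Gpx2: attcccagaaTGACTTAGCgaaaccaggt
The core began 135 bases before the start of Prdx1 (window chr5:135383656-135383955, plus strand), 167 before Me1 (chr8:96540195-96540494, minus), 61 before Gstp1 (chr1:210769656-210769955, minus) and 78 before 1 of 2 annotated starts of Txnrd1 (chr7:22755855-22756154, minus). For Gclm it began 172 bases before the start (chr2:213031885-213032184, plus) and for Gpx2 13 before it (chr6:101229984-101230283, minus). Prdx1, Me1 and Gstp1 were detected and had SDs of 0.08, 0.07 and 0.15, and they were highest on replicates 2, 3 and 4. The other matches were in the windows of Sod2, Prdx5, Nfe2l2 and Prdx4. The standard targets Nqo1, Gclc, Srxn1 and Slc7a11 had no core in their windows. Elements outside the windows were not searched for. A match is a run of letters and not a measured binding site.

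Of 78 further genes of these pathways 63 were detected on all 4 arrays (80.8%), against 50.9% of all named genes. Of these 63 genes 0 passed the variance test, against 0.149% of all detected genes. In that test 2 had an unadjusted p below 0.05 (3.17%), Fth1 and the sestrin gene Sesn2, against 5.97% of all detected genes. All 7 genes of NADPH supply were detected, among them Pgd, phosphogluconate dehydrogenase, at 1.42 ± 0.06 (SD, n = 4). Of 9 further regulators 8 were detected, including Bach1, the haem-binding repressor of NRF2 targets, at -3.90 ± 0.34 and the small MAF protein Mafg at 1.54 ± 0.10, and Trim16 was not. Slc3a2, the partner chain of Slc7a11, lay at 2.59 ± 0.05.

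Among the further genes not detected, the glutathione transferases were the largest group. Of 12 further transferases 6 were detected on all arrays, among them Gsta1 at 2.62 ± 0.15. That share is close to the 50.9% of all named genes detected in the same way. Gsta3, Gstm2, Gstm5, Gstt1, Gstk1 and Gsto2 were detected on no array. The gamma-glutamyl transferases Ggt1 and Ggt5, which cleave extracellular glutathione, were also detected on no array. Txnip, the thioredoxin inhibitor, was detected at -0.37 ± 0.15, while Txnrd3 was detected on 3 arrays. Of the methionine sulfoxide reductases and sestrins, Msra (-2.29 ± 0.06) and Msrb1 (2.18 ± 0.08) were detected, Msrb3 on 1 array and Sesn1 on 3. Gpx7 and Gpx8, peroxidases of the endoplasmic reticulum, were detected on no array. Among phase I and II enzymes the epoxide hydrolase Ephx1 lay at -0.78 ± 0.16 and the carbonyl reductase Cbr1 at 2.63 ± 0.02, and the aldehyde dehydrogenase Aldh3a1 was detected on no array.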

How the data were processed

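Total RNA of 4 NR8383 samples of 1 group was labelled with Cy3 from 100 ng of RNA with an integrity number above 7.5, per the labels' protocols, and spots were quantified by Agilent Feature Extraction 11.0.1.1, as the submitters' processing notes state. The deposited values used are fluorescence intensity per spot: a processed signal from which the software had removed background, plus the raw spot mean and the median of its surroundings. Per the file headers these are linear values with no scaling across arrays. Slide and scan could not be tested as batches, since 1 slide held all 4 arrays. Precision is limited by the number of arrays.

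Each array held 62976 spots, 58717 of them not controls, for 45598 probes; 402 to 615 spots flagged as outliers per array were left out. Levels are log2 processed signals from which the 75th percentile of the same array was subtracted, averaged over the spots of a probe. A probe counted as detected on an array if the share of its remaining spots well above background exceeded 0.5, and a gene when 1 of its probes was detected on all 4; the brightest detected probe gives a gene's level, and the brightest of any where none passed. Names came from the files and, through unversioned accessions, from a RefSeq table of GRCr8: accessions named 23413 probes, current symbols 5335 and older symbols 465, while 16385 stayed under their deposited names. Probe coordinates were copied as deposited (rn4); promoter windows are RefSeq's, on GRCr8.

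The test of variance between arrays used R 4.3.3 and limma 3.58.1: the variance of each detected probe was set against a robustly fitted prior with a trend on signal (F test, Benjamini-Hochberg at 0.05 over all detected probes). A gene was called by its brightest detected probe. The test was checked on simulated data. Python 3.11.15, numpy 2.4.6, pandas 2.3.3 and matplotlib 3.10.9 did the rest. If the samples do not come from separate cultures, the p-values measure technical spread.

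The genes and lists were chosen with earlier results of these data known. Genes named in full were the regulators and 8 standard targets, members not detected, the 6 of largest and 3 of smallest SD, and those whose probes differed in SD over 2 times; further genes were named where not detected or as the first 2 of their list. Other genes named, among them Blvra, Hmox2, Fech, Itgam and Sesn2, and the comparison by base composition, were chosen after values were seen. A further gene that this rule names is not reported here.

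Alternatives were another detection flag, 2 arrays or every probe required, flagged spots kept, symbols alone, normexp (offset 50), quantile, median and spike-in scaling, no filter, no robust step, no trend, a threshold of 0.01, the mean of detected probes, and each replicate left out.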

Additional observations from a re-analysis of the deposited data

Results flagged for a closer look

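In 5 of the 95 detected antioxidant and further pathway genes (5.26%) 1 replicate stood apart from the other replicates, with a gap to the nearest that passed Dixon's critical value for 4 values; chance alone flags about 1 in 20 groups of 4. None was among the 32 detected antioxidant genes of the main list, and 4 of the 5 are given here. Mafk, a small MAF partner of NRF2, was highest on replicate 4 at -3.54, against -4.18 to -4.08 on the others (gap 0.844 of the range). Chac2, a glutathione-degrading cyclotransferase, was lowest on replicate 4 at -3.06, against -2.85 on each of the others (0.957). Hagh, hydroxyacylglutathione hydrolase, was highest on replicate 3 at 0.32, against 0.18 to 0.20 (0.862). Gstz1, a zeta-class transferase, was lowest on replicate 4 at -1.85, against -1.53 to -1.49 (0.876). No gene of these 4 passed limma's variance test.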

How the results depend on the processing

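The count of antioxidant genes detected stayed within 32 to 34 of 37 and that of the further genes within 61 to 67 of 78 under every detection alternative run; leaving out each replicate gave 32 to 32 and 63 to 65. Members past the variance test were 1, Hmox1, with normexp (adjusted p = 0.033) and without the filter on dim probes (adjusted p = 1.4e-07), and 0 under the other alternatives, where the adjusted p of Hmox1 in limma was 0.16 to 0.93; leaving out each replicate gave 0 members and an adjusted p of 0.16 to 0.40. Over all detected genes the test passed 16, against 136 with normexp, 571 with no filter, 24 with the median scale, 14 with quantile normalization and 0 with spike-in scaling, with a prior that was not robust or had no trend. It passed 39 without replicate 1, 25 without replicate 2, 0 without replicate 3 and 26 without replicate 4. The median SD of the detected antioxidant genes was 0.081 to 0.093 with a replicate left out and moved to 0.495 with spike-in scaling, where replicate 4 was highest for 0 of the 32 genes, against 7 in the main setting. Of the 32 single SDs, 30 were higher by over 1.5 times with spike-in scaling; under the other alternatives 3 of 256 values were higher and 26 lower by over 1.5 times, 21 of the lower with a replicate left out. The cause was not tested. Signal over background limits Gclm, Sod3, Gpx2, Gpx3 and Gstm1, which have only a bound. No paired analysis was possible because all samples belong to 1 group.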

Other observations

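The sestrins, regulators of nutrient signalling induced by stress, were described after their values were seen. Sesn2 had levels of -1.45, -1.44, -0.98 and -1.01 (adjusted p = 0.74 in limma), and Sesn3 had levels of -3.04, -3.36, -3.11 and -3.39 (adjusted p = 1.0 in limma). Their replicates were not ordered alike.

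The 5 further genes with a Seleno symbol, which encode selenoproteins, were all detected. Selenof had levels of 4.33, 4.5, 4.51 and 4.80 and an SD of 0.19, Selenow had an SD of 0.18 and Selenop of 0.17, and Selenok and Selenot had SDs of 0.09 and 0.07. The copper chaperones Ccs and Atox1 had SDs of 0.06 and 0.04. Akr1b8, an aldo-keto reductase, was at 5.73 ± 0.06 and Sqstm1, the KEAP1-binding autophagy receptor, at 4.35 ± 0.05 (SD, n = 4). Osgin1, an oxidative stress-induced gene, was detected at -4.51 ± 0.13.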
